A study of Mus musculus with 158 samples.

Results

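The 9 myelin genes Mbp, Mog, Mag, Mobp, Cnp, Cldn11, Ermn, Opalin and Ugt8a were taken by symbol from the 21956 gene rows of a mouse RNA count table, and each symbol matched 1 row. The table covers 158 libraries, each amplified from a single brain cell drawn up with a patch pipette and left untreated. After 9 pairs of libraries taken to be of the same cell had been summed, 149 cells remained in 6 groups. Neurons in acute brain slices came from the cortex (22 cells) and from the hippocampal fields CA1 (15) and CA3 (5), all of strain C57/BL6/N. Primary cultures gave 13 cortical neurons (C57/BL6/N, kept for 6, 10, 13 or 15 days), 8 hippocampal neurons (C57/BL6, 15 days) and 86 cortical astrocytes (7, 12, 14 or 15 days). Of the astrocytes, 3 were labelled C57/BL6, all of them kept for 7 days, and 83 were labelled C57/BL6/N. The titles of 4 of the hippocampal libraries form 2 pairs (M1S with M1D, M9S with M9D) told apart by their ending alone. What the endings stand for is not given, and the 4 were counted as separate cells. The labels give no age of the animals and name no animal, donor or culture, so each group was 1 sample, cells were not counted as replicates, and no test of a difference was made.

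Myelin is the wrapped membrane that insulates axons, and in the central nervous system it is made by oligodendrocytes, not by neurons or astrocytes. Mbp encodes myelin basic protein, which holds the cytoplasmic faces of the wrapped membrane together, and its mRNA is carried out into the cell processes. Mobp is a further small basic protein of compact myelin, and Cldn11 forms the tight junctions between its layers. Mag and Mog are surface proteins of the immunoglobulin superfamily, Mag on the membrane facing the axon and Mog on the outermost layer. Ugt8a makes galactosylceramide, a main lipid of myelin, and Cnp is an enzyme of the uncompacted cytoplasmic channels. Ermn and Opalin mark mature oligodendrocytes. The Mbp locus also gives rise to golli transcripts, which are known from neurons and immune cells. The count table holds a single Mbp row, so golli and classic transcripts cannot be told apart.

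The start regions of 3 members are shown because these genes differed in the company they kept. Mag and Ugt8a were detected only beside other members, whereas Mobp had its highest level in a cell without another member. Mog and Cldn11 also never stood alone, and Mobp was detected beside Mbp in 2 of its 3 cells. SOX10, which drives myelin genes in oligodendrocytes, is a SOX factor, and such factors are known to bind the core motifs ACAAAG and ACAATG. Each sequence holds the 200 bases from 250 to 51 bases before the RefSeq start of the gene (GRCm38.p6), 5′ to 3′ on the gene's strand, with either motif on either strand in capitals.
Mag (chr7:30914973-30915172, minus strand): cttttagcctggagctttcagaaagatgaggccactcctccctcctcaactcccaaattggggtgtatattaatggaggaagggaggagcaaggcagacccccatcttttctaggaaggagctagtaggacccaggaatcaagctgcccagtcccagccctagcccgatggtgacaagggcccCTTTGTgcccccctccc
Mobp (chr9:120149492-120149691, plus strand): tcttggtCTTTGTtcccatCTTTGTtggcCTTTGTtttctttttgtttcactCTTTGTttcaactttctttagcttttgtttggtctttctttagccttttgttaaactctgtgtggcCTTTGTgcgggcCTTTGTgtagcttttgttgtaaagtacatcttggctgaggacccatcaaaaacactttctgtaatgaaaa
Ugt8a (chr3:125938703-125938902, minus strand): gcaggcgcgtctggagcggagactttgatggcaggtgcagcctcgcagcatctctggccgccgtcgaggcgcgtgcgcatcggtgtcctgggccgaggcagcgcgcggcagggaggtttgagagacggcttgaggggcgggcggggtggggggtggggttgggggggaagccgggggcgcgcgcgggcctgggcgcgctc
ACAAAG occurred 6 times in the Mobp window and 1 time each in those of Mag, Cnp and Opalin, and ACAATG occurred 1 time in that of Ermn. Neither was found in the windows of Cldn11, Mog or Ugt8a, and the window of Mbp was not analysed here. Over 27025 promoters of the same length, 21.4% held at least 1 of the motifs, 13.6% held ACAAAG and 9.12% held ACAATG. The Ugt8a window held 25 CG dinucleotides and that of Cldn11 13, against a median of 4 over all promoters and 1 each in Mag, Mog and Mobp. The share of promoters with several copies was not taken, so no background stands beside the 6 copies in Mobp. These matches describe the letters in the windows only.

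Most cells that held myelin RNA held a single member. A member was called detected in a cell with at least 5 of its counts after the cell had been thinned to 1000000 counts, a depth reached by 148 cells. At least 1 member was detected in 30 of 62 neurons (48.4%, Clopper-Pearson 95% interval 35.5 to 61.4%), of which 16 held 1, 8 held 2 and 6 held 3 or more. Those 6 cells (9.68%, 3.63 to 19.9%) held 27 of the 59 detections in neurons. The data thus contained both patterns: several members together in a few cells, and Mbp or Cnp singly in more cells. Of the 16 neurons with a single member, 12 had Mbp, 2 had Cnp, 1 had Mobp and 1 had Ermn. These and the later intervals describe counting error alone, and amplified reads with no molecular identifiers are not independent.

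Slice neurons and cultured cortical neurons differed in how the detections were spread. In slice neurons 13 of 32 detections (40.6%) stood alone in their cell, against 3 of 27 (11.1%) in cultured neurons. The lower share came from the cultured cortical neurons, with 1 of 23 alone, whereas cultured hippocampal neurons had 2 of 4 alone. At least 3 members were found in 2 of 41 slice neurons (4.88%, 0.596 to 16.5%) and in 4 of 21 cultured neurons (19.05%, 5.45 to 41.9%), and these intervals overlap. The groups also differed in depth: slice neurons had a median total of 5061570 counts and 1946 genes detected, cultured neurons 11390500 counts and 5285 genes. By group, at least 1 member was found in 12 of 22 cortical slice neurons, 5 of 14 CA1, 2 of 5 CA3, 8 of 13 cultured cortical and 3 of 8 cultured hippocampal neurons (2 of 6 without the titles ending in D, M1D being the 1 with Mbp). Without Mbp, 5 of 22 cortical slice neurons had a member.

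**Figure D1:**
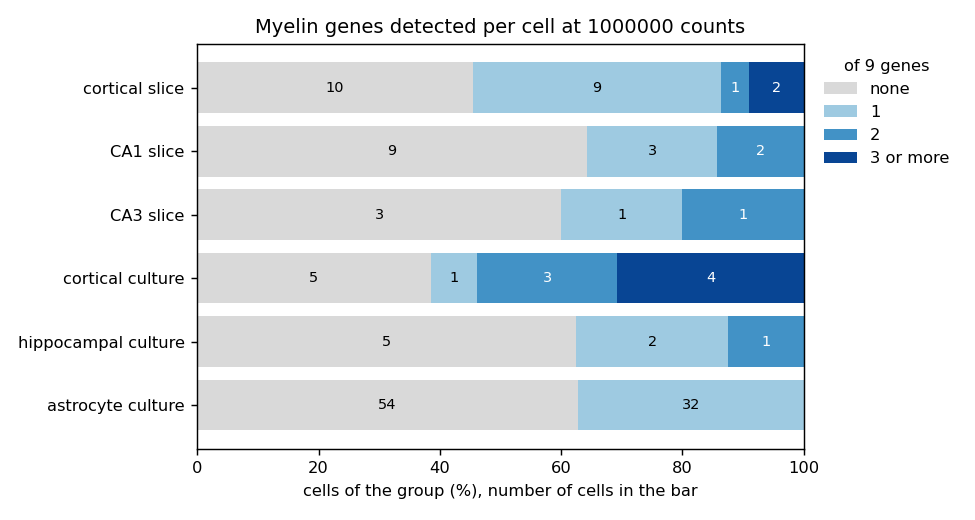
Share of cells (horizontal axis, %) with none, 1, 2 or at least 3 of the 9 myelin genes detected at 1000000 counts, by group, with the number of cells in each bar. Cells with 3 or more appear only in the bars of cortical slice (2 cells) and cultured cortical neurons (4 cells).

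Among 86 cultured astrocytes, 32 had 1 member and none had 2 (0 of 86, where 3 cells would be a share of 3.49% and the Clopper-Pearson upper limit is 4.199%). In 31 of the 32 that member was Cnp and in the other it was Mbp. Without Cnp, 1 of 86 astrocytes had a member. The astrocytes had a median of 4932.5 genes detected and the slice neurons 1946, and the part of this breadth in the result was not tested.

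The largest set of members was found in the cortical slice neuron titled P22, with 6 of 9. It held Mbp at 4584 counts per 1000000 counts of the cell (CPM), Cldn11 at 956.4, Mag at 251.6, Ugt8a at 184.3, Cnp at 173.7 and Mog at 55.1, and Mbp ranked 5 among its genes by count. Other oligodendrocyte genes were present in the same cell, 10 of 22, among them Enpp2 at 1505 CPM and Fa2h, an enzyme of myelin lipid synthesis, at 355.4 CPM. All 10 neuron markers were detected as well, with Snap25, a synaptic fusion protein, at 1859 CPM. Astrocyte markers numbered 7 of 10 and microglial markers 2 of 12.

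The slice neuron titled P16 held 5 members in other proportions. Ugt8a stood at 3803 CPM, Cldn11 at 2575, Mbp at 468.1, Cnp at 122.3 and Mobp at 91.3, while Mag and Mog had no count. Of the 22 other oligodendrocyte genes 6 were detected, with Enpp2 at 2475 CPM and Fa2h at 198.0 CPM. P16 was 1 of 2 cortical slice neurons, with P32, in which a larger share of astrocyte than of neuron markers was detected. It had 9 of 10 astrocyte markers, with the water channel Aqp4 at 1968 CPM, 4 of 10 neuron markers, 3 of 12 microglial and 5 of 8 fibroblast and meningeal markers. The part of these other cell types in its myelin counts was not tested.

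In culture, the cortical neuron titled Sample_2016R11N_10 had 5 members, with Mbp at 1028 CPM, Cnp at 481.9, Mag at 287.9, Ugt8a at 187.4 and Mog at 17.1. It had 9 of the 22 other oligodendrocyte genes, with Bcas1 at 164.1 CPM and Myrf, a transcription factor of maturing oligodendrocytes, at 38.4. Of the precursor genes, Gpr17 was at 222.3 CPM and Olig1 at 354.6, while Pdgfra had no count. It also had 7 of 10 neuron markers and no microglial marker. Astrocyte markers were mixed, with Slc1a3 at 371.6 CPM and Slc4a4 at 123.3, while Aqp4 was at 0.122 and Gja1 had no count.

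The cultured neuron titled Sample_2016R10N_23 also had 5 members, Mbp at 273.7 CPM, Cldn11 at 63.3, Mobp at 13.4, Ugt8a at 8.78 and Cnp at 8.36. Only 1 of the 22 other oligodendrocyte genes was detected there, beside all 10 neuron markers. Of the 10 precursor genes 2 were detected, Pdgfra at 144.4 CPM and Olig1 at 68.6. The cultured neurons titled J8_23 and J6_8min_20 each had Mbp, Cnp and Cldn11. In J8_23 the 3 genes stood at 159.1, 46.9 and 33.02 CPM, and in J6_8min_20 at 28.8, 148.3 and 152.5 CPM. J6_8min_20 is the sum of a pair of libraries joined because their counts were alike, with no label that says they are of 1 cell, and each library alone held the 3 genes. These cells had 8 and 6 of 12 microglial markers and 9 and 7 of 10 astrocyte markers. J8_23 was 1 of 3 cultured cortical neurons, with J5_18 and Sample_2016R9N_19, that had a larger share of astrocyte than of neuron markers.

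**Figure D2:**
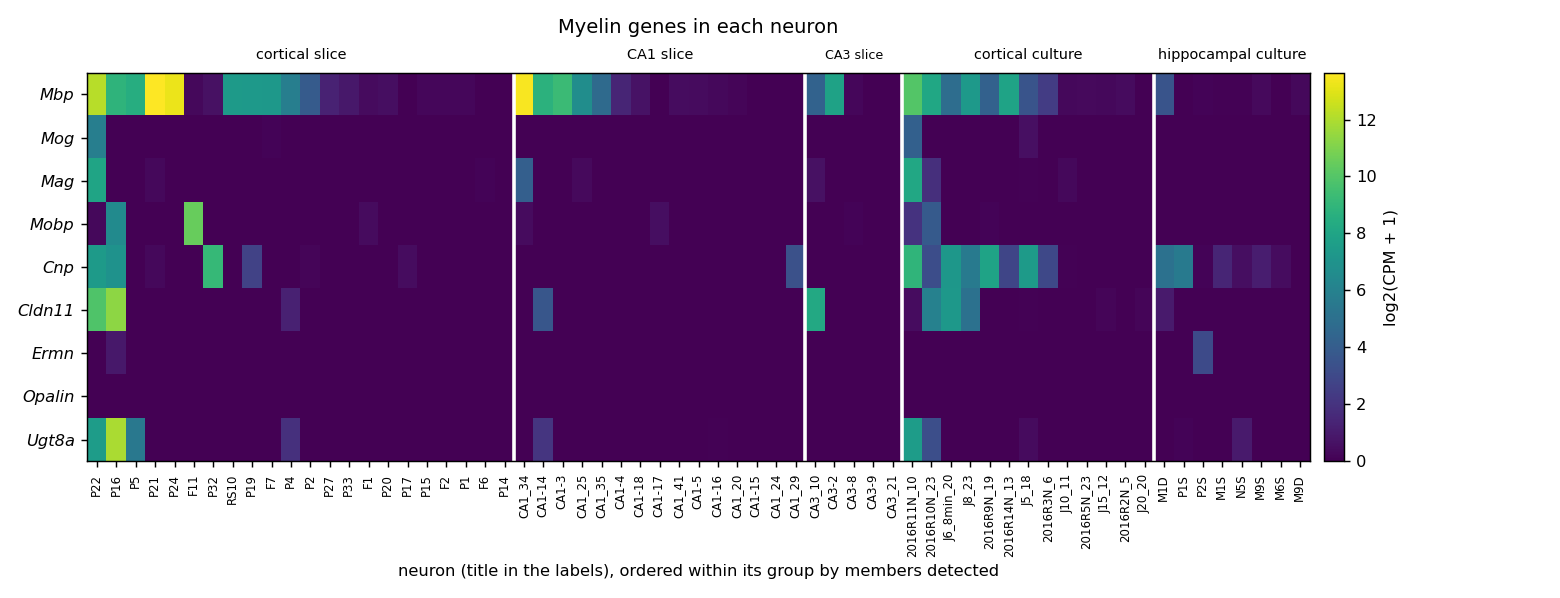
Level of each myelin gene (rows, colour, log2 of CPM plus 1) in each neuron (columns, title in the labels), ordered within its group by members detected, with the CA1 cell below the common depth last in its group. The Mbp row is filled in many columns, while the other rows are filled mainly in the first columns of the cortical slice and cortical culture groups.

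Mbp was detected in 27 of 148 cells, in 13 of them with no other member, in 8 with 1 other and in 6 with at least 2. The share was 10 of 22 cortical slice neurons (45.5%, 24.4 to 67.8%), 5 of 14 CA1, 2 of 5 CA3, 8 of 13 cultured cortical neurons (61.5%, 31.6 to 86.1%), 1 of 8 cultured hippocampal neurons and 1 of 86 astrocytes. The levels within a group spanned orders of magnitude. Cortical slice neurons ran from 0 to 12751 CPM with a median of 1.17, CA1 neurons from 0 to 11564 with a median of 0.377, and cultured cortical neurons from 0 to 1028 with a median of 10.6. The 5 CA3 neurons held 234.7, 18.4, 0.198, 0 and 0 CPM. Cultured hippocampal neurons ran from 0 to 10.6 CPM with a median of 0.0886, and astrocytes from 0 to 6.48 with a median of 0. All 6 groups overlapped, since each contained cells with no Mbp count.

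Counts summed over a group and divided by its total gave Mbp 1157 CPM in cortical slice neurons (exact Poisson 95% interval 1152 to 1163), 526.6 in CA1, 121.6 in cultured cortical neurons, 47.2 in CA3, 0.830 in cultured hippocampal neurons and 0.069 in astrocytes. These sums rested on few cells. CA1_34 held 86.9% of the CA1 sum, which was 72.01 CPM without it, and CA3-2 held 89.1% of the CA3 sum, which was 6.26 CPM without it. The cortical slice sum was 740.7 CPM without P24, the cultured hippocampal sum 0.0857 CPM without M1D and the astrocyte sum 0.0150 CPM without its highest cell. Without CA1_34 the CA1 sum lay below that of cultured cortical neurons. Across all cells, 7 held 90% of the Mbp counts.

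Mbp was highest in cells that lacked most of the other members. In the slice neuron titled P21 it reached 12751 CPM, 1.28% of all counts of the cell, with no other member above 0.22 CPM. P24 had 9606 CPM and no count of any other member. Each of these cells had been sequenced in a pair of libraries, and these gave 12419 and 13233 CPM for P21 and 9409 and 9893 CPM for P24. CA1_34 had 11564 CPM with Mag at 16.6 as its only other detected member. Of the 8 cortical slice neurons with at least 100 CPM of Mbp, 4 had another member at 5 CPM or more.

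The 3 cells were unlike in their other RNA. In P21, 559 genes were detected, Snap25 was at 0.870 CPM and 1 of 10 neuron markers was detected. The microglial genes Ctss, a lysosomal protease, and Aif1 stood there at 6575 and 2316 CPM, whereas Cx3cr1 and Csf1r were at 0.218 and 0.870. P24 had 917 genes detected, 4 neuron markers with the vesicle protein Syt1 at 4212 CPM, and no microglial marker. In CA1_34, 6 neuron and 8 microglial markers were detected. Of the 22 other oligodendrocyte genes, 3 were detected in CA1_34, 1 in P24 and 0 in P21.

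Microglial RNA and Mbp were found in many of the same slice cells. Of 17 slice neurons with at least 3 of 12 microglial markers, 10 had Mbp, and of 24 with fewer, 7 had it. The summed level of the 12 markers ran from 0.560 to 13549 CPM (median 1286) in the 17 slice neurons with Mbp and from 0.253 to 20824 (median 13.4) in the 24 without. The 22 other oligodendrocyte genes summed to 1.37 to 8583 CPM (median 146.2) with Mbp and to 0 to 2439 (median 17.8) without. Genes detected per cell had medians of 2436 and 1787. The single astrocyte with Mbp, at 6.48 CPM, had 11 of 12 microglial markers and Cx3cr1 at 4197 CPM. The part of microglial RNA in the Mbp counts was not tested.

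**Figure D3:**
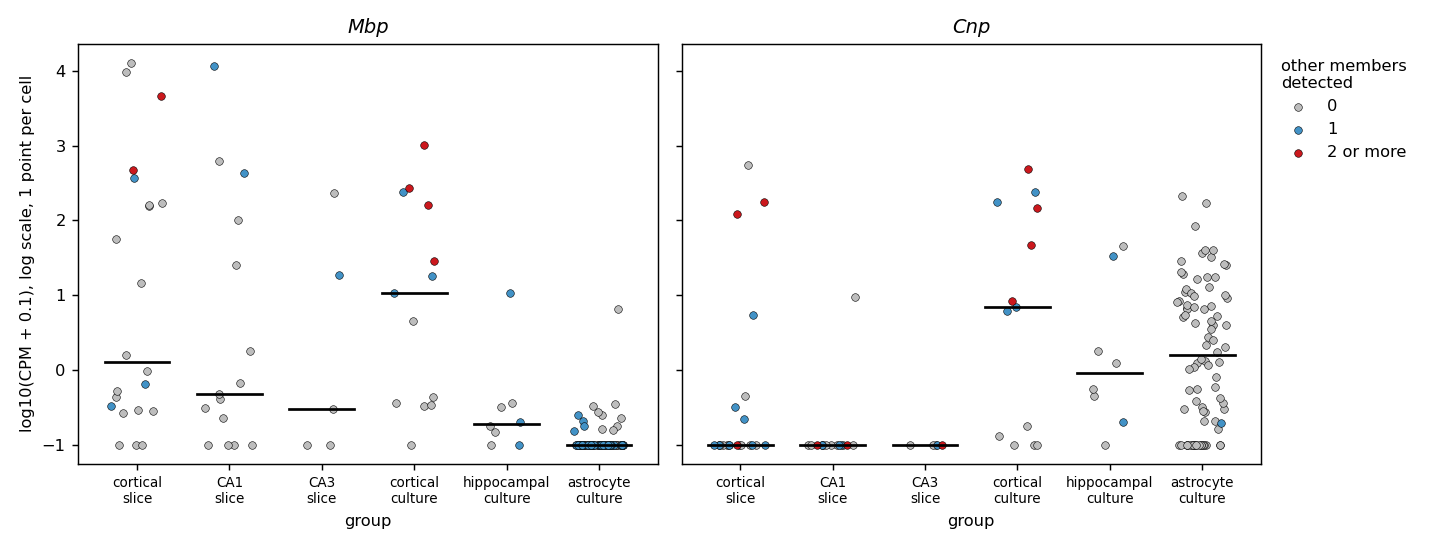
Mbp (left) and Cnp (right) in each cell by group, as log10 of CPM plus 0.1, with a bar at the group median and colour for the number of other members detected (the CA1 cell below the common depth is grey). The highest Mbp point is grey, at 12751 CPM, and the next, in CA1 at 11564 CPM, has 1 other member, while nearly all Cnp points of the astrocytes are grey.

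Cnp was the member found most widely, in 43 of 148 cells, and alone in 33 of them. It was detected in 31 of 86 astrocytes (36.05%, 25.97 to 47.1%), 7 of 13 cultured cortical neurons (53.8%, 25.1 to 80.8%), 2 of 8 cultured hippocampal neurons and 3 of 22 cortical slice neurons, and in no CA1 or CA3 neuron at the common depth. Astrocytes ran from 0 to 211.1 CPM with a median of 1.46, and cultured cortical neurons from 0 to 481.9 with a median of 6.83. Summed levels were 69.7 CPM in cultured cortical neurons (68.6 to 70.9), 37.1 in cortical slice neurons, 12.8 in astrocytes, 8.19 in cultured hippocampal neurons, 0.064 in CA1 and 0 in CA3, and the groups overlapped cell by cell. The highest astrocyte held 26.9% of the astrocyte sum. P32 held 54.2% of the cortical slice sum, which was 17.6 CPM without it, and P1S held 63.3% of the cultured hippocampal sum, which was 3.39 CPM without it. Across all cells, 26 cells were needed to reach 90% of all Cnp counts, the most of any member. The Cnp gene (chr11:100574904-100591729, plus strand) overlaps Dnajc7 on the opposite strand. Since the strand setting of the counting is not given in the sources used here, reads of Dnajc7 cannot be told apart from it.

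Of the astrocytes, Cnp was detected in 0 of 3 cells at 7 days of culture (0 to 70.8%). At 12 days the share was 24 of 70 (34.3%, 23.3 to 46.6%). The shares at 14 and 15 days were 2 of 5 (5.27 to 85.3%) and 5 of 8 (62.5%, 24.5 to 91.5%). These intervals overlap. The 3 astrocytes of 7 days are those labelled C57/BL6, so days and strain cannot be told apart there. The median level was 1.26 CPM at 12 days and 16.5 CPM at 15 days, with ranges of 0 to 211.1 and 0 to 84.7. In the cultured cortical neurons, days in culture went with detection. No member was detected in the 3 neurons of 6 days and 1 of the 3 neurons of 10 days had any, whereas all 4 neurons of 13 days and all 3 of 15 days had Mbp and Cnp both. Each of these 7 older neurons had at least 10.6 CPM of Mbp and 6.08 of Cnp, and each of the 6 younger ones had at most 4.38 and 6.83. The 6- and 15-day neurons were basecalled with v1.8.4 and the 10- and 13-day neurons with v2.17, and within either version every older neuron lay above every younger one in Mbp. In Cnp the neurons of 10 and 13 days overlapped. The older neurons also had 3 to 9 of 10 astrocyte markers and 3848 to 6877 genes detected, against 0 to 3 markers and 1188 to 4680 genes in the younger ones, and the part of either in the result was not tested. Animals and cultures are not named, so age and culture cannot be told apart.

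Cldn11 and Ugt8a never stood alone. Cldn11 was detected in 7 cells, all of which had Mbp, and in 5 of them with at least 2 other members. Its levels in the slice were 2575 CPM in P16, 956.4 in P22, 304.2 in CA3_10 and 11.8 in CA1-14, and every other slice neuron had at most 1.35. In culture J6_8min_20, Sample_2016R10N_23 and J8_23 had it. Its summed level was 198.5 CPM in cortical slice neurons (196.2 to 200.7), 83.6 in CA3, where CA3_10 held every count, 27.4 in cultured cortical neurons, 0.783 in CA1, 0.0682 in cultured hippocampal neurons and 0.00235 in astrocytes (3 counts). Cldn11 lies at chr3:31149920-31164324 on the plus strand.

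Ugt8a was detected in 5 cells, again all with Mbp. Its levels were 3803 CPM in P16, 184.3 in P22, 42.8 in P5, 187.4 in Sample_2016R11N_10 and 8.78 in Sample_2016R10N_23. P16 held 94.7% of the cortical slice sum of 225.5 CPM (223.1 to 227.9), which was 12.7 without it. The sum was 8.39 CPM in cultured cortical neurons, 0.231 in CA1, 0.159 in cultured hippocampal neurons, 0.00314 in astrocytes and 0 in CA3. CA1-14, with Mbp at 433.7 and Cldn11 at 11.8 CPM, had Ugt8a at 3.28 CPM, just under the threshold in this thinning, and another draw counted it as a cell with 3 members.

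Mag and Mog reached the detection threshold in few cells. Mag was detected in P22 at 251.6 CPM, in Sample_2016R11N_10 at 287.9 and in CA1_34 at 16.6, and Mog in P22 at 55.1 and in Sample_2016R11N_10 at 17.1. P22 held 99.9% of the Mag and 99.8% of the Mog counts of the cortical slice group. The summed Mag level was 14.2 CPM in cortical slice neurons (13.6 to 14.8), 11.6 in cultured cortical neurons (11.2 to 12.1), 0.668 in CA1, 0.146 in CA3, 0.018 in astrocytes and 0 in cultured hippocampal neurons. For Mog the sums were 3.11 CPM, 0.721 CPM and 0.00470 CPM in cortical slice neurons, cultured cortical neurons and astrocytes, with no count in the other groups. Mag (chr7:30899176-30914873, minus strand) overlaps no other annotated gene, and Mog (chr17:37010743-37023398, minus strand) overlaps the small RNA Gm22388 on the opposite strand.

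Mobp, like Mbp in P21 and Cnp in P32, had its highest level in a cell without another member. The slice neuron titled F11 had Mobp at 1436 CPM, and its pair of libraries gave 1423 and 1445 CPM. Mbp was at 0.228 CPM there, and 7 of 10 neuron markers were detected with Snap25 at 1654 CPM. P16 at 91.3 and Sample_2016R10N_23 at 13.4 CPM were the other cells with Mobp, and every other cell had at most 3.04. F11 held 88.9% of the cortical slice sum of 46.6 CPM (45.5 to 47.7), and the remaining groups stood at 1.66 CPM in cultured cortical neurons, 0.0364 in CA3, 0.0257 in CA1, 0.00549 in astrocytes and 0 in cultured hippocampal neurons. Mobp (chr9:120149707-120181484, plus strand) overlaps the transcript Gm38642 on the same strand, whose reads cannot be told apart.

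Ermn and Opalin, which mark mature oligodendrocytes, were nearly absent. Ermn was detected in 1 cell, the cultured hippocampal neuron P2S, at 7.505 CPM and without another member. It had 7 counts in cortical slice neurons, all in P16, and 21 in astrocytes, and none in the other groups. Ermn (chr2:58045113-58052864, minus strand) overlaps Galnt5 on the opposite strand. Opalin (chr19:41061710-41077113, minus strand) was detected in no cell (0 of 62 neurons and 0 of 86 astrocytes) and had 7 counts in all, each in an astrocyte. Of the 4 cells with 5 or 6 members, P22, Sample_2016R11N_10 and Sample_2016R10N_23 had no count of either gene, and P16 had the 7 Ermn counts (0.820 CPM).

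Pairs of members showed the same layering over the 62 neurons. All 7 neurons with Cldn11, all 5 with Ugt8a, all 3 with Mag and both with Mog had Mbp, as did 10 of the 12 with Cnp. In turn, 7 of the 26 neurons with Mbp had Cldn11 (26.9%), 10 had Cnp (38.5%) and 5 had Ugt8a (19.2%). Both neurons with Mog had Mag, Cnp and Ugt8a. Mobp had Mbp in 2 of its 3 cells, and the 1 neuron with Ermn did not have it.

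Checked against markers, 83 of 86 astrocytes had a larger share of astrocyte than of neuron markers, and 57 of 62 neurons did not. The check set only astrocyte against neuron markers and could not flag other RNA. P21 passed it with 1 of 10 neuron markers detected and microglial markers that summed to 11560.5 CPM. The number of members went with the number of other oligodendrocyte genes. Of the 22 such genes, the median detected was 1 in the 32 neurons with no member (range 0 to 5), 1 in the 16 with 1 (0 to 5), 2.5 in the 8 with 2 (0 to 6) and 4.5 in the 6 with at least 3 (1 to 10). Genes detected per cell followed the same order over the pooled neurons, with medians of 1998, 2152, 3428 and 4646. The part of this breadth in the result was not tested. Astrocyte markers had medians of 1, 2, 2.5 and 7 of 10, and neuron markers of 6, 7, 7 and 8.5 of 10. All these medians pool slice with cultured neurons. In slice neurons the oligodendrocyte medians were 1, 1, 2 and 8, and in cultured neurons 1, 1, 2.5 and 2.5. Medians of genes detected were 1864, 1865, 2346 and 2450.5 in slice neurons and 5139.5, 5875, 5101.5 and 5605, with no order, in cultured neurons. Neuron markers had medians of 6, 7, 6.5 and 7 in slice neurons and 9.5, 10, 8 and 8.5 in cultured neurons. Sox10, the transcription factor of the whole oligodendrocyte lineage, was at 367.2 CPM in J5_18 and 92.0 in J6_8min_20, cells with 2 and 3 members. In P22 and Sample_2016R11N_10, with more members, it was at 10.97 and 7.42 CPM. J5_18 also had the precursor genes Olig2 at 1256 and Pdgfra at 485.7 CPM.

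**Figure D4:**
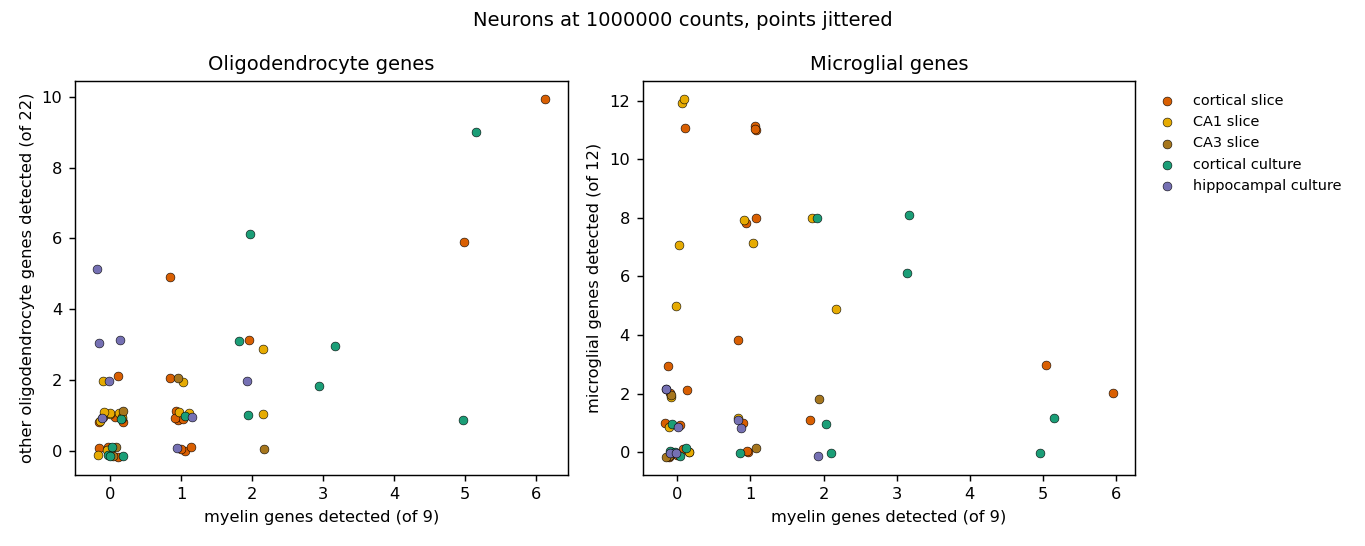
Myelin genes detected (horizontal axis, of 9) against other oligodendrocyte genes (left, of 22) and microglial genes (right, of 12) in each neuron, coloured by group and jittered. The cells with 5 and 6 members lie between 1 and 10 on the left and between 0 and 3 on the right, and cells with 11 or 12 microglial genes have 0 or 1 member.

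Of the genes on the neuronal side of myelin, the co-receptor Lingo1 was detected in 8 of 22 cortical slice neurons and in 4 of 13 cultured cortical neurons. The receptor Rtn4r, which binds Mag, was detected in 1 cell of either group.

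The 6 comparisons of groups asked whether brain region, source or cell type went with the level of the members. With 1 sample a group a gene was called on size alone, at a log2 ratio of summed CPM plus 1 of at least 1, and only if it had at least 10 counts and was seen in at least 3 cells. In cortical slice over cultured cortical neurons 7 of 9 members passed that filter and 5 were called higher, beside 24.7% of all measured genes, and none lower, beside 37%. The log2 ratios were 4.59 for Ugt8a, 4.16 for Mobp, 3.24 for Mbp, 2.81 for Cldn11 and 1.26 for Mog, while Mag was at 0.27 and Cnp at -0.89. The median over all measured genes was -0.24. A member could pass the filter through the group in which it was high alone, so these counts describe the groups and support nothing about the members as a set. Single cells set many of the values. Without P16, Ugt8a was at 0.54 and no longer called, and Cldn11 was at 1.03. Without F11, Mobp was at 1.25, and without P24, Mbp was at 2.60. Without P22, Mog was at -0.77 and Mag at -3.64, and without Sample_2016R11N_10 Mag was at 3.52. Cnp was called lower when any of P16, P22, P32, Sample_2016R10N_23, Sample_2016R5N_23 or Sample_2016R14N_13 was left out, at -1.92 without P32. Without P16, P22, Sample_2016R10N_23 and Sample_2016R11N_10, a choice made after seeing the cells, 3 members were called higher and 2 lower, with Cldn11 at -4.58 and Mog at -0.069. Of the other lists, 11 of the 12 microglial genes and 9 of 18 measured oligodendrocyte genes were called higher here, with 4 of the 18 lower, against 1 of 10 precursor genes, of which 6 were lower. The 12 genes of myelin lipid and sterol synthesis, of which Ugt8a is 1, divided into 5 higher and 4 lower, and the neuron markers into 4 higher and 3 lower of 10.

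In cultured cortical neurons over astrocytes 8 members were measured and 6 were called higher, beside 19.9% of all genes, with none lower, beside 29.8%. Mobp had 7 counts, Ugt8a 4 and Cldn11 3 in the astrocytes. These members passed the filter only through the cultured cortical neurons and could not be called lower. The log2 ratios were 6.84 for Mbp, 4.82 for Cldn11, 3.63 for Mag, 3.23 for Ugt8a, 2.36 for Cnp and 1.40 for Mobp. Without Sample_2016R11N_10, Mag was at 0.38 and Ugt8a at 1.05, and without Sample_2016R10N_23, Mobp was at 0.19. Without both, 3 were called. All 10 neuron markers were higher and 5 of 9 measured astrocyte markers lower in the same comparison.

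In CA1 over cortical slice neurons 6 members were measured and all 6 were called lower, beside 39.8% of all genes, and none higher, beside 22.6%. Mobp had 2 counts and Cnp 5 in the CA1 cells. These members passed the filter only through the cortical slice and could not be called higher. The log2 ratios ran from -7.52 for Ugt8a to -1.13 for Mbp, and Mbp was no longer called under edgeR's TMM factors or DESeq2's size factors, which left 5. Leaving out any of P21, P22, P24, CA1-15, CA1-16 or CA1_20 also ended the Mbp call, with -0.49 without P24 and -0.98 without CA1_20, whereas without CA1_34 it was -3.99. Without P16, Ugt8a was at -3.47 and Cldn11 at -5.03, and without F11 Mobp was at -2.62. Without P22, Mag was at 0.72 and no longer called. Without P16 and P22, 3 were called lower and Cldn11 stood at 0.78. In this comparison 8 of 9 measured astrocyte markers were lower as well, and 5 of 12 microglial genes higher.

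In CA3 over CA1, 2 members were measured, Mbp was called lower at -3.45, beside 46.2% of all genes, and none was higher, beside 24.8%. Without CA1_34 Mbp stood at -0.60 and no member was called. Of the 12 microglial genes 11 were lower in the same comparison, with a median log2 ratio of -8.63, and their part in the Mbp ratio was not tested. Cultured hippocampal over cultured cortical neurons had 7 members measured and 6 lower, beside 25.3% of all genes, with Mbp at -6.07 and Cnp at -2.94, and none higher, beside 30.3%. Mag and Mobp had no count and Cldn11 6 counts in the hippocampal cells, so these members passed the filter only through the cortical culture, and Mag and Mobp could only be lower. Without Sample_2016R11N_10 Mag and Ugt8a were no longer called, at -0.41 and -0.84, nor was Mobp without Sample_2016R10N_23, at -0.20. Without P1S Cnp was at -4.01. All 9 measured astrocyte markers and 7 of 10 precursor genes were lower there too. In cultured hippocampal over CA1 slice neurons 3 members were measured. Cnp was higher at 3.11, beside 51.9% of all genes, and Mbp lower at -8.17, beside 18%, where the median of all genes was 1.11. The CA1 level of Cnp rested on 5 counts in 1 cell, and Mbp stood at -5.32 without CA1_34. All 12 microglial genes were lower there, with a median of -8.82, and their part in the Mbp ratio was not tested. The cultured hippocampal neurons were C57/BL6 and kept for 15 days. CA1 and cultured cortical neurons were C57/BL6/N, and the cultured cortical neurons were kept for 6 to 15 days. In the comparisons with cultured hippocampal neurons, strain cannot be told apart from region or source. Days in culture also differed from those of the cultured cortical neurons, of which 3 were kept for 15 days. Those 3 had Mbp at 10.59 to 159.1 CPM and Cnp at 46.9 to 174.7 CPM. The cultured hippocampal neurons had Mbp at 0 to 10.63 CPM (median 0.0886) and Cnp at 0 to 45.8 CPM. The part of days in culture in the ratios was not tested. The 6 comparisons share groups, so their results are not independent of each other.

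By the titles of cortical slice neurons, 9 of 16 cells with the letter P and 2 of 5 with the letter F had a member, and both cells with at least 3 were of the letter P. The labels do not explain the letters.

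Among the genes whose pattern over the 149 cells was most like the mean of the members (Pearson's r of log2 CPM plus 1, among 12203 genes) were Plxnb3 at 0.70, Gjc3 at 0.58, Gpr17 at 0.58 and Apod at 0.56. Plxnb3 reached 10 CPM in 3 cells and had its highest level in P22, and Gjc3 was highest in J6_8min_20. Among 42 slice neurons the first was Frmd3 at 0.82, and 8 of the 10 closest genes had their highest level in P16. Among 13 cultured cortical neurons Bzrap1 led at 0.91, and all 10 had their highest level in Sample_2016R11N_10. These values are descriptions, since the points share depth and breadth, and the closest genes follow single cells.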

How the data were processed

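Per the labels' protocols and the series description, RNA of single cells was amplified in 3 rounds and made into stranded polyA libraries. Per the submitters' processing notes, base calls were converted with bcl2fastq 1.8.4 or bcl2fastq2 2.17, and STAR and HTSeq gave counts per gene on mm10 (GRCm38). For the annotation, strand setting and other versions, nothing is stated in these sources. The values deposited by the authors are raw counts of reads, not normalized. Library totals ran from 535369 to 38680739 counts (median 10735985).

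Libraries were grouped by their labels, and 9 pairs of libraries were summed, 8 by their titles and 1 (J6) by its counts alone. CPM were counts over the total of a cell or group, with exact Poisson 95% intervals; shares have Clopper-Pearson 95% intervals. Cells were thinned without replacement to 1000000 counts (seed 7, drawn by cell name); 1 CA1 cell (535369 counts) was too shallow. This draw replaced a first one, seeded by table position, after the results had been seen. Group ratios used a pseudocount of 1 CPM. All members are named, and 2 genes outside them are not reported here. The genes most like them had at least 10 CPM in at least 3 cells, predicted genes passed over. Gene models are from GENCODE and promoters from RefSeq; the promoter window was shortened to 200 bases after motif counts were seen, to keep out annotated untranslated sequence. Alternatives included edgeR 4.0.16 and DESeq2 1.42.0 scaling. Calculations used Python 3.11.15 and R 4.3.3. The members and lists were chosen with earlier results of these data known.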

Additional observations from a re-analysis of the deposited data

Results flagged for a closer look

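In groups of 5 or 8 cells, a gene was picked out when 1 cell lay far from the others by Dixon's criterion, and 8 of 9 sets examined did so. In 5 of these 8 sets every other cell of the group was at 0, so the criterion was met by construction, and the rate of about 1 in 20 that chance gives does not apply to them; cells are also not replicates. Among the CA3 neurons Mbp was 234.7 CPM in CA3-2 and Cldn11 304.2 CPM in CA3_10, while Mag at 0.530 CPM in CA3_10 and Mobp at 0.0992 CPM in CA3-8 were single cells with a few counts. Among the cultured hippocampal neurons M1D had Mbp at 10.6 CPM and Cldn11 at 0.966 CPM, P2S had Ermn at 7.505 CPM and N5S had Ugt8a at 0.968 CPM.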

How the results depend on the processing

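The number of cells with at least 3 members was within its counting interval in all 58 alternatives run, and that with at least 1 member in 52 of 58. The 6 others were 5 cortical slice neurons without Mbp, 7 hippocampal neurons at a threshold of 1 count, and in astrocytes 54 cells at 1 count, 13 at 20 counts, 22 after thinning to 500000 counts and 1 without Cnp. The counting intervals for at least 3 members are wide, at 1.12 to 29.2% in cortical slice neurons and 0 to 23.2% in CA1. Large changes in those counts would also lie within them, so they are a weak check of stability. The first draw, in place of the one reported, gave 7 cells with at least 3 members (CA1-14 added) against 6, with Mbp in 25 against 27 cells, Cnp in 46 against 43 and Ugt8a in 6 against 5. A further seed gave 6 such cells, and P2S then lost Ermn.

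The settings without Mbp or without Cnp, the draw by position, the naming of single cells, the detection without D titles and the comparisons without P16, P22, Sample_2016R10N_23 and Sample_2016R11N_10 were chosen after seeing the data. Without those 4 cells the members called in slice over culture were 3 higher and 2 lower, in culture over astrocytes 3 higher, in CA1 over cortex 3 lower and in hippocampal over cortical culture 3 lower. Then Mog was -0.069 and Cldn11 -4.58 in slice over culture, Mag 0.72 and Cldn11 0.78 in CA1 over cortex, and Ugt8a 0.17 in hippocampal over cortical culture. Without the cell with the most members in each group, slice over culture had 2 lower with Mog at -0.85, and CA1 over cortex had 3 lower with Mag at 0.76. Slice over culture had 1 lower by the mean of the cells' CPM. CA3 over CA1 had 1 higher with no filter and 2 lower with a pseudocount of 0.1 CPM. Leaving out each cell in turn gave 0 to 2 lower in slice over culture and 0 to 1 lower in CA3 over CA1, Mog from -0.77 to 1.97 in the first and Mag from -3.91 to 0.72 in CA1 over cortex. Where cells were left out, fewer cells made the difference; for the other settings the cause was not tested. TMM or DESeq2 scaling moved the median of all genes by up to 0.825 log2 and turned no measured member's direction. No paired analysis was possible because no test was made and the labels pair no samples across groups.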
